A study of Equus caballus with 24 samples.

Results

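The RNA of 10 immediate early response genes was followed in the pituitary and the long bone epiphysis of a small breed, the Debao pony (DP), and a larger one, the Mongolian horse (MH). The genes were EGR1, EGR2, EGR3, FOS, FOSB, JUN, JUNB, ATF3, IER2 and DUSP1. They were chosen by symbol, and each of the 10 symbols stood on 1 of the 24232 genes with deposited reads. All 10 passed the filter on low counts in every comparison. EGR3 did so in some pituitary comparisons only through the group where it was higher. RNA came from 12 female horses, 6 of each breed, whose health a veterinarian had checked. Juveniles were under 3 years of age and adults over 3 years. With 3 libraries per group, the 8 groups were named by breed, tissue and stage. The pituitary groups were DPPJ and MHPJ in juveniles and DPPA and MHPA in adults, and the long bone groups were DPLBJ and MHLBJ in juveniles and DPLBA and MHLBA in adults. The tissues were whole pieces collected at slaughter, so a lower level can be fewer cells that use a gene or less RNA per cell, and these cannot be told apart. Nothing in the labels says which pituitary and long bone libraries came from the same animal.

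Immediate early response genes are switched on within minutes when growth factors, hormones, mechanical load or stress activate kinases in a cell, and their induction needs no new protein. Most encode short-lived transcription factors. The EGR proteins are zinc finger factors, FOS and JUN family proteins pair up as the AP-1 factor, and ATF3 is a stress-responsive factor of the ATF/CREB family that can pair with JUN proteins. DUSP1 is a phosphatase that switches MAP kinases off again. In bone, FOS and JUN proteins take part in the differentiation of osteoblasts and osteoclasts, and in the pituitary EGR1 is needed for production of luteinizing hormone. The RNA of these genes can also change during handling of a tissue.

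Between 11433209 and 27007342 reads per library were counted on genes. Levels are given as CPM, the reads on a gene relative to the TMM-scaled library size. A differentially expressed gene (DEG) had to pass both a fold change over 2 and, in edgeR's quasi-likelihood test, a P under 0.05 before adjustment. Log2 fold changes are given with a standard error, taken as their absolute value divided by the square root of the F statistic of that test. The p printed beside them is the Benjamini-Hochberg value over all genes tested, which was above 0.05 for most DEGs named here. A call is said to be lost when either the P or the fold no longer passed. With 3 libraries against 3, an exact two-sided permutation test cannot go below 0.1. Several libraries stood apart. The summed level of 5 hormone genes of the anterior pituitary, of 7 listed, was 14.6 CPM or less in 5 pituitary libraries (MHPJ replicates 1 to 3, DPPA replicate 1 and MHPA replicate 1) and 11010 CPM or more in the other 7. In those 5 libraries the 5 markers of neural lobe and glia summed to between 6120 and 19080 CPM. In the other 7 they summed to between 62.9 and 4236 CPM. The highest of these was DPPJ replicate 2, and the next was DPPJ replicate 3 at 498 CPM. MHPJ replicate 2 differed from the other 4 libraries low in hormone genes. It had GFAP, an astroglial marker, at 48.5 CPM where they had 1685 to 6807 CPM. It also had PMP22 at 1767 CPM and PRX at 4820 CPM, both genes of myelin made by Schwann cells, where no other pituitary library passed 31.1 CPM of PMP22 or 12.2 CPM of PRX. Its muscle markers summed to 889 CPM and its endothelial markers to 863 CPM, against at most 13.1 and 280 CPM in the other pituitary libraries. Of the long bone libraries, MHLBA replicate 1 had the lowest scaling factor, 0.589.

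Levels between genes were compared as RPKM, the reads per length of a gene and per size of the library, and the neighbours in this order overlapped between libraries. Median RPKM in the long bone over 12 libraries was 233 for JUN (86.8 to 549), 42.8 for DUSP1 (18.4 to 94.0), 29.1 for FOS (8.02 to 47.1), 24.9 for EGR1 (15.3 to 90.1), 19.7 for JUNB (6.32 to 27.9) and 14.9 for IER2 (6.25 to 146). It was lower for ATF3 (6.61), EGR3 (3.10), EGR2 (2.55) and FOSB (2.49). In the pituitary, JUN (120), FOS (25.6), DUSP1 (24.9), EGR1 (19.9), JUNB (14.5) and IER2 (10.7) again had the 6 highest medians, and the RPKM was 3.77 for ATF3, 1.58 for FOSB, 0.625 for EGR2 and 0.29 for EGR3. The place of JUN rests on a gene length of 372 bases in the files, the shortest of the 10, where the others have between 1009 and 3140 bases. When the 8 groups were ordered by mean CPM for each gene, the libraries of neighbouring groups overlapped in all but 3 of 70 neighbouring pairs. Those 3 were JUN between MHLBJ and DPLBJ, JUN between DPLBJ and MHPJ, and IER2 between DPPJ and DPPA. No such share was computed over all genes, so these pairs are given as a description only.

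In the juvenile long bone, EGR1, EGR3 and ATF3 were lower in DPs than in MHs, 3 of the 10 genes, where 13.8% of all tested genes were DEGs and 5.47% were lower. Of all DEGs there 60.3% were higher in DPs, and 42.5% without TMM scaling. The median log2 fold change of the 10 genes was -0.73, against 0.053 over all tested genes. In the adult long bone 6 of the 10 were DEGs, against 18.3% of all tested genes: JUN, FOS, FOSB, ATF3 and DUSP1 were lower in DPs (8.03% of all tested genes were) and IER2 was higher. The median there was -1.04, against -0.035 over all tested genes. With the adjusted p under 0.05, JUN was called in adults (1 of 10, against 2.24% of all genes) and none of the 10 in juveniles, where 4 of them had an unadjusted P under 0.05 by edgeR, and EGR1, EGR2, EGR3 and ATF3 passed the unadjusted rule with DESeq2.

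**Figure D1:**
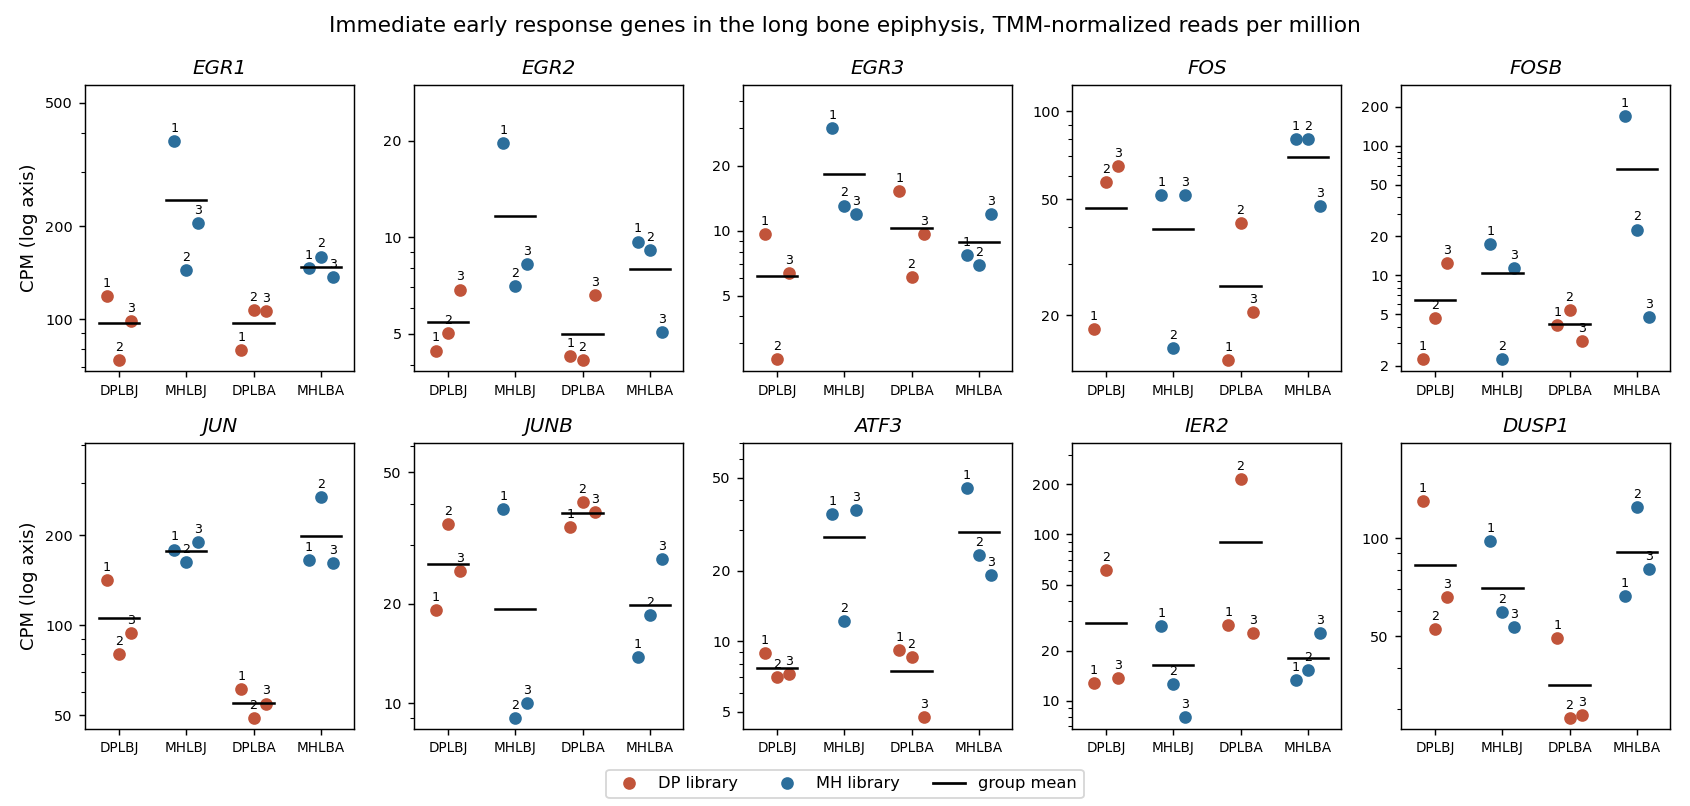
Level of the 10 genes in each long bone library (TMM-normalized CPM, log axis), by group, with the replicate number beside each point and the group mean as a line. ATF3 and JUN lie lower in all 6 DP libraries than in all 6 MH libraries, and IER2 is highest in DPLBA replicate 2 (216 CPM).

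EGR1 (ENSECAG00000014338) binds GC-rich promoters and is the most widely induced member of its family. It stood at 119, 73.8 and 98.5 CPM in the 3 DPLBJ libraries and at 376, 145 and 205 CPM in MHLBJ. In adults it was 79.4, 107 and 106 CPM in DPLBA and 146, 159 and 137 CPM in MHLBA. The breeds did not overlap at either stage, and MHLBJ replicate 1 was the highest. The log2 fold change was -1.33 ± 0.39 in juveniles (adjusted p = 0.183) and -0.63 ± 0.25 in adults (adjusted p = 0.171), the latter under the fold threshold. Without MHLBJ replicate 1 the juvenile value for EGR1 was -0.87 (adjusted p = 0.468), which is no longer a DEG.

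EGR3 (ENSECAG00000023741), an EGR family member that EGR1-like signals also induce, was 9.63, 2.52 and 6.35 CPM in DPLBJ and 30.1, 13.1 and 11.9 CPM in MHLBJ. The 3 DP libraries were all below the 3 MH libraries, with a log2 fold change of -1.59 ± 0.58 (adjusted p = 0.231). This call was lost without MHLBJ replicate 1 (-1.05), DPLBJ replicate 2 (-1.22) or DPLBJ replicate 3 (-1.59, adjusted p = 0.438). In adults EGR3 was 15.2, 6.11 and 9.64 CPM in DPLBA and 7.69, 6.90 and 11.9 CPM in MHLBA, and the breeds overlapped (0.19 ± 0.44, adjusted p = 0.827). EGR2 (ENSECAG00000010818), a factor best known for driving myelin genes in Schwann cells, ranged from 4.14 to 6.87 CPM over the 6 DP libraries and from 5.08 to 19.7 CPM over the 6 MH libraries. Its log2 fold change was -1.1 ± 0.48 in juveniles (adjusted p = 0.295) and -0.71 ± 0.43 in adults (adjusted p = 0.356). The juvenile value of EGR2 was -1.38 without MHLBJ replicate 2 and passed, as it did with DESeq2.

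Of the AP-1 genes, JUN (ENSECAG00000024055) was 142, 80.3 and 94.1 CPM in DPLBJ and 179, 163 and 190 CPM in MHLBJ. In adults it was 61.1, 49.1 and 54.8 CPM in DPLBA and 165, 268 and 162 CPM in MHLBA. Every DP library was below every MH library at both stages. The log2 fold change was -0.76 ± 0.27 in juveniles (adjusted p = 0.226), under the fold threshold, and -1.88 ± 0.28 in adults (adjusted p = 0.0301). The adult value of JUN was between -2 and -1.6 when each library was left out in turn, a DEG each time, and the juvenile value was -1.03 without DPLBJ replicate 1.

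FOS (ENSECAG00000014260) was 14.1, 41.3 and 20.5 CPM in DPLBA and 80.5, 80.4 and 47.4 CPM in MHLBA. The DP libraries were all lower, by -1.49 ± 0.44 on the log2 scale (adjusted p = 0.102), and FOS was a DEG with any 1 library left out (-2.02 to -1.19). In juveniles FOS overlapped between the breeds, at 18.0, 57.0 and 65.1 CPM in DPLBJ and 51.6, 15.4 and 51.5 CPM in MHLBJ (0.24 ± 0.60, adjusted p = 0.87).

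FOSB (ENSECAG00000018002), a FOS relative, was 4.15, 5.35 and 3.09 CPM in DPLBA and 170, 22.6 and 4.78 CPM in MHLBA. The MH libraries spanned a wide range, and the lowest of them fell within the DP libraries. This gave a log2 fold change of -4.06 ± 1.18 (adjusted p = 0.1), and it was -1.69 (adjusted p = 0.152) without MHLBA replicate 1, the library with the lowest scaling factor. In juveniles FOSB was 2.26, 4.68 and 12.3 CPM in DPLBJ and 17.4, 2.27 and 11.4 CPM in MHLBJ (-0.70 ± 0.83, adjusted p = 0.702).

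JUNB (ENSECAG00000003816), an AP-1 partner that can restrain JUN, had the opposite sign. It was 34.1, 40.7 and 37.9 CPM in DPLBA and 13.8, 18.4 and 27.3 CPM in MHLBA, without overlap, with a log2 fold change of 0.89 ± 0.30 (adjusted p = 0.132) that did not pass the fold threshold. Without MHLBA replicate 3 the adult JUNB value was 1.19 and passed. In juveniles JUNB overlapped, from 19.2 to 34.7 CPM in DPLBJ and at 38.8, 9.03 and 9.99 CPM in MHLBJ (0.46 ± 0.60, adjusted p = 0.727), and without MHLBJ replicate 1 the value was 1.46 (adjusted p = 0.455) and passed.

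ATF3 (ENSECAG00000011486) was lower in DPs at both stages. It stood at 8.87, 7.05 and 7.22 CPM in DPLBJ and 35.0, 12.3 and 36.4 CPM in MHLBJ. In adults it was 9.17, 8.54 and 4.74 CPM in DPLBA and 45.1, 23.4 and 19.3 CPM in MHLBA. No DP library reached the lowest MH library. The log2 fold change was -1.86 ± 0.46 in juveniles (adjusted p = 0.150) and -2.02 ± 0.45 in adults (adjusted p = 0.0641), and ATF3 was a DEG at both stages whichever library was left out.

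IER2 (ENSECAG00000009012), a short-lived nuclear protein, was 28.5, 216 and 25.6 CPM in DPLBA and 13.3, 15.4 and 25.6 CPM in MHLBA. DPLBA replicate 2 was far above the other 5, which overlapped or came close. IER2 had a log2 fold change of 2.29 ± 0.83 (adjusted p = 0.150), and it was 0.57 (adjusted p = 0.426) without DPLBA replicate 2, 2.14 (adjusted p = 0.225) without MHLBA replicate 1 and 2.19 (adjusted p = 0.245) without MHLBA replicate 2, none of them a DEG. The deposited RPKM of IER2 in DPLBA replicate 2 was 146, where its reads give 140, and in that library 296 of the genes with 100 or more reads had an RPKM off by over 2% from their reads, against at most 2 genes in any other library. In juveniles IER2 was 12.7, 61.4 and 13.6 CPM in DPLBJ and 28.3, 12.7 and 8.01 CPM in MHLBJ (0.87 ± 0.75, adjusted p = 0.589).

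DUSP1 (ENSECAG00000009958), the phosphatase of the feedback arm, was 49.5, 28.2 and 28.7 CPM in DPLBA and 66.7, 124 and 80.3 CPM in MHLBA. The DP libraries were all lower (-1.37 ± 0.34, adjusted p = 0.0739), and DUSP1 was a DEG with any 1 library left out. In juveniles the breeds overlapped, at 130, 52.6 and 66.3 CPM in DPLBJ and 98.1, 59.3 and 53.4 CPM in MHLBJ (0.23 ± 0.40, adjusted p = 0.802).

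Over both stages together, with 6 long bone libraries of each breed, JUN, ATF3 and FOSB were lower in DPs and IER2 was higher. These 4 of 10 genes compare with 19.3% of all tested genes, 7.97% lower, and JUN and ATF3 also had an adjusted p under 0.05 (2 of 10, against 12.8% of all tested genes). JUN ranged from 49.1 to 142 CPM in DPs and from 162 to 268 CPM in MHs (-1.33 ± 0.19, adjusted p = 0.00512). ATF3 ranged from 4.74 to 9.17 CPM in DPs and from 12.3 to 45.1 CPM in MHs (-1.95 ± 0.34, adjusted p = 0.00799). Neither gene overlapped between the breeds, and both were DEGs whichever of the 12 libraries was left out. EGR1 did not overlap either, and its log2 fold change of -0.99 ± 0.23 (adjusted p = 0.0178) lay just under the fold threshold. FOSB was -2.37 ± 0.78 (adjusted p = 0.0576) and -1.21 (adjusted p = 0.181) without MHLBA replicate 1. IER2 was 1.56 ± 0.62 (adjusted p = 0.0995) and 0.70 without DPLBA replicate 2, 0.98 without DPLBJ replicate 2, 1.49 without MHLBA replicate 1, 1.5 without MHLBA replicate 2, 1.49 without MHLBJ replicate 2 and 1.39 without MHLBJ replicate 3, in none of which it was a DEG. Without MHLBA replicate 1 the count was 2, JUN and ATF3. EGR1 passed without DPLBA replicate 2 or 3, DPLBJ replicate 1, MHLBA replicate 3 or MHLBJ replicate 2 or 3 (-1.12 to -1.02). EGR2, at -0.91 ± 0.32, passed without replicate 3 of any of the 4 groups or MHLBJ replicate 2 (-1.04 to -1.01), and JUNB passed without MHLBJ replicate 1 (1.16).

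The breed difference in the long bone was compared between juveniles and adults by the interaction of breed and stage, which gave 3 of 10 genes past the rule, against 4.17% of all tested genes. JUN was lower in DPs by more in adults than in juveniles (interaction 1.07 ± 0.37). For DUSP1 the breed difference was 0.23 in juveniles and -1.37 in adults (interaction 1.56 ± 0.54). For EGR3 the DP value relative to MHs was lower in juveniles than in adults (-1.82 ± 0.75). The adjusted p of all 3 was 0.971. The call of JUN was lost without DPLBA replicate 2 (0.99), DPLBJ replicate 1 (0.81) or MHLBA replicate 2 (0.82). That of EGR3 was lost without any 1 of 6 libraries, namely DPLBA replicate 1 (-1.43), DPLBJ replicate 2 (-1.46), DPLBJ replicate 3 (-1.83), MHLBA replicate 1 (-1.71), MHLBA replicate 2 (-1.65) and MHLBJ replicate 1 (-1.28). Without MHLBA replicate 3 the count was 5, with FOS (1.91) and FOSB (3.89) added. FOS also passed without DPLBA replicate 2 (2.24) or DPLBJ replicate 1 (2.08), and FOSB without DPLBJ replicate 1 (3.73), MHLBA replicate 2 (3.75) or MHLBJ replicate 1 (3.90). IER2 passed without DPLBJ replicate 2 (-2.65) and EGR1, just past the threshold, without MHLBJ replicate 2.

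Markers of several cell types spread widely over the long bone libraries, and their part in the breed differences was not tested. Over the 6 DP and 6 MH libraries, the 5 cartilage markers summed to between 51.7 and 22970 CPM in DPs (median 7737) and between 10.8 and 1660 CPM in MHs (median 22.0). The 4 osteoblast markers found, of 5 listed, summed to 9777 to 30790 CPM in DPs and 2908 to 23230 CPM in MHs. The 4 endothelial markers summed to 733 to 1375 CPM in DPs and 734 to 2717 CPM in MHs, and the 5 adipocyte markers to 1603 to 6139 CPM and 989 to 8390 CPM. The 3 neutrophil and monocyte markers found, of 6 listed, summed to 8.54 to 1531 CPM in DPs and 18.3 to 47.4 CPM in MHs. The 4 erythroid markers summed to 0.0619 to 7076 CPM in DPs and 0.475 to 7.47 CPM in MHs. The 3 macrophage markers summed to 264 to 1074 CPM and 190 to 783 CPM, and the 3 muscle markers found, of 4 listed, to 0.331 to 1.26 CPM and 0.437 to 229 CPM. Over both stages all of these ranges overlapped between the breeds, but within a stage several did not. In juveniles, DPs were above MHs for cartilage (51.7 to 17450 CPM in DPLBJ, 10.8 to 16.9 CPM in MHLBJ) and below them for endothelial (733 to 1292 and 1881 to 1950 CPM), adipocyte (1603 to 4077 and 6117 to 8390 CPM) and muscle markers (0.641 to 1.26 and 2.95 to 229 CPM). In adults, DPs were above MHs for osteoblast (19800 to 29500 CPM in DPLBA, 2908 to 15530 CPM in MHLBA), neutrophil and monocyte (161 to 232 and 19.7 to 36.0 CPM) and macrophage markers (753 to 1074 and 190 to 608 CPM).

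**Figure D2:**
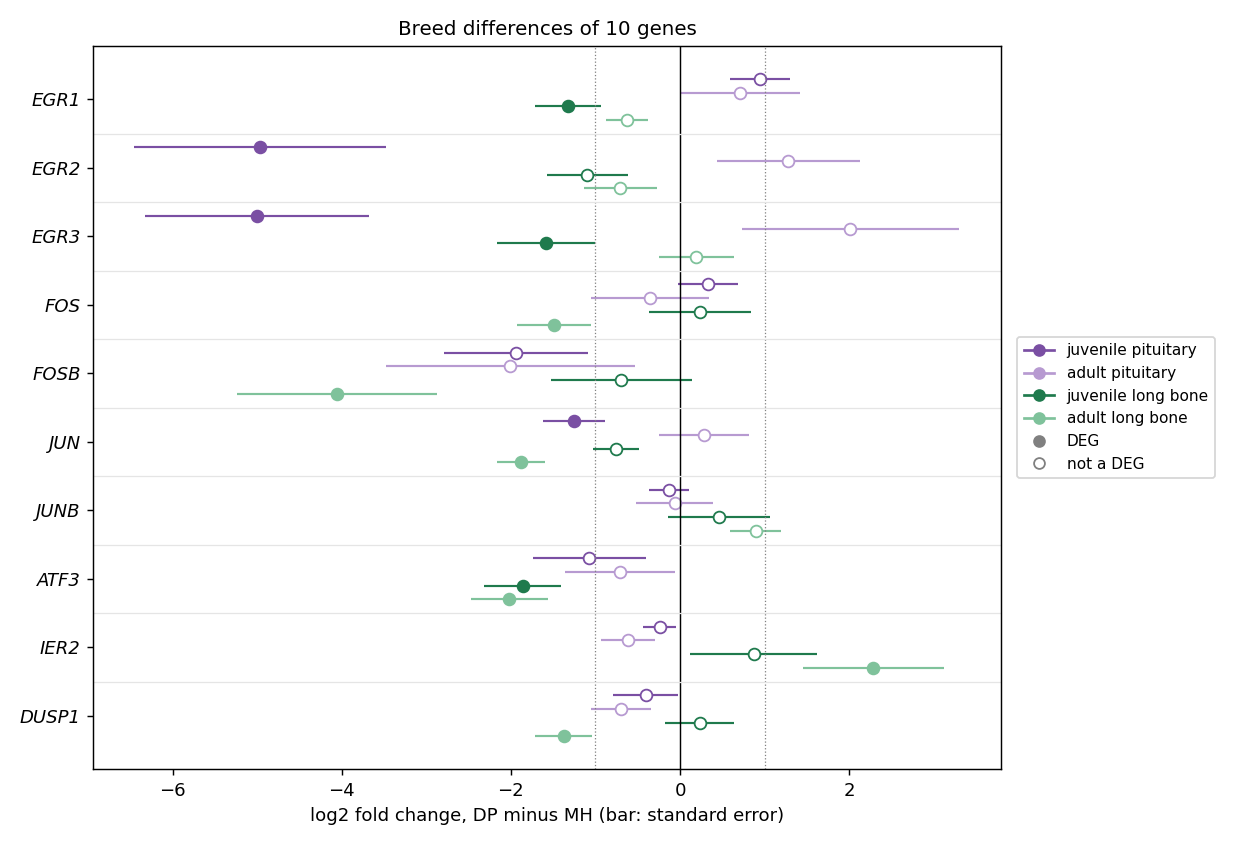
Log2 fold change (DP minus MH) of each gene in the 4 breed comparisons, with bars of 1 standard error. Filled points are DEGs, open points are not, and dotted lines mark the fold threshold. ATF3 lies below 0 in all 4 comparisons, and EGR2 and EGR3 lie near -5 in the juvenile pituitary.

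In the juvenile pituitary, EGR2, EGR3 and JUN were lower in DPs than in MHs, 3 of the 10 genes, against 20.3% of all tested genes and 12.7% that were lower. The median log2 fold change of the 10 genes was -0.74, and -0.073 over all tested genes. None of the 10 had an adjusted p under 0.05 in edgeR's test, the lowest being 0.0641, and 4 had an unadjusted P under 0.05.

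Of EGR3, DPPJ held 0, 11 and 7 reads and MHPJ held 199, 14 and 215 reads, where a count of 0 allows up to 3 reads by counting error alone. In CPM it was 0, 0.501 and 0.285 in DPPJ and 10.9, 1.17 and 13.6 in MHPJ. Every DPPJ library was below every MHPJ library, and MHPJ replicate 2 was far below the other MHPJ libraries. Its log2 fold change was -5 ± 1.32 (adjusted p = 0.0641), with EGR3 a DEG whichever library was left out. EGR3 passed the low-count filter here only through MHPJ, the group where it was high.

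EGR2 was 0.863, 1.46 and 0.814 CPM in DPPJ and 3.17, 84.8 and 4.87 CPM in MHPJ. The breeds did not overlap, and MHPJ replicate 2 was far above the other MHPJ libraries. That library was also the one with PMP22 at 1767 CPM and PRX at 4820 CPM, and the part of these in its EGR2 level was not tested. EGR2 had a log2 fold change of -4.96 ± 1.49 (adjusted p = 0.0839), and without MHPJ replicate 2 it was -1.94 (adjusted p = 0.0165), still a DEG. EGR2 was no longer a DEG without DPPJ replicate 1 (adjusted p = 0.256) or DPPJ replicate 3 (adjusted p = 0.253).

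JUN was 25.5, 48.2 and 18.7 CPM in DPPJ and 64.9, 68.3 and 80.0 CPM in MHPJ, without overlap (-1.25 ± 0.37, adjusted p = 0.0802). This call was lost without DPPJ replicate 1 (-1.12, adjusted p = 0.254) or DPPJ replicate 3 (-0.98). Leaving out either of these libraries took the count from 3 to 1, EGR3. EGR1 had the other sign, at 84.9, 95.8 and 76.0 CPM in DPPJ and 67.9, 25.3 and 37.5 CPM in MHPJ. It did not overlap, and its log2 fold change of 0.95 ± 0.36 (adjusted p = 0.133) was under the fold threshold, while it was 1.35 without MHPJ replicate 1. FOSB was 0.559, 3.46 and 0.774 CPM in DPPJ and 9.74, 2.51 and 5.81 CPM in MHPJ (-1.94 ± 0.86, adjusted p = 0.179). It passed without DPPJ replicate 2 (-3.23) or MHPJ replicate 2 (-2.28). ATF3, FOS, JUNB, IER2 and DUSP1 overlapped between the breeds and did not pass, with values from -1.07 ± 0.67 (ATF3) to 0.33 ± 0.36 (FOS).

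**Figure D3:**
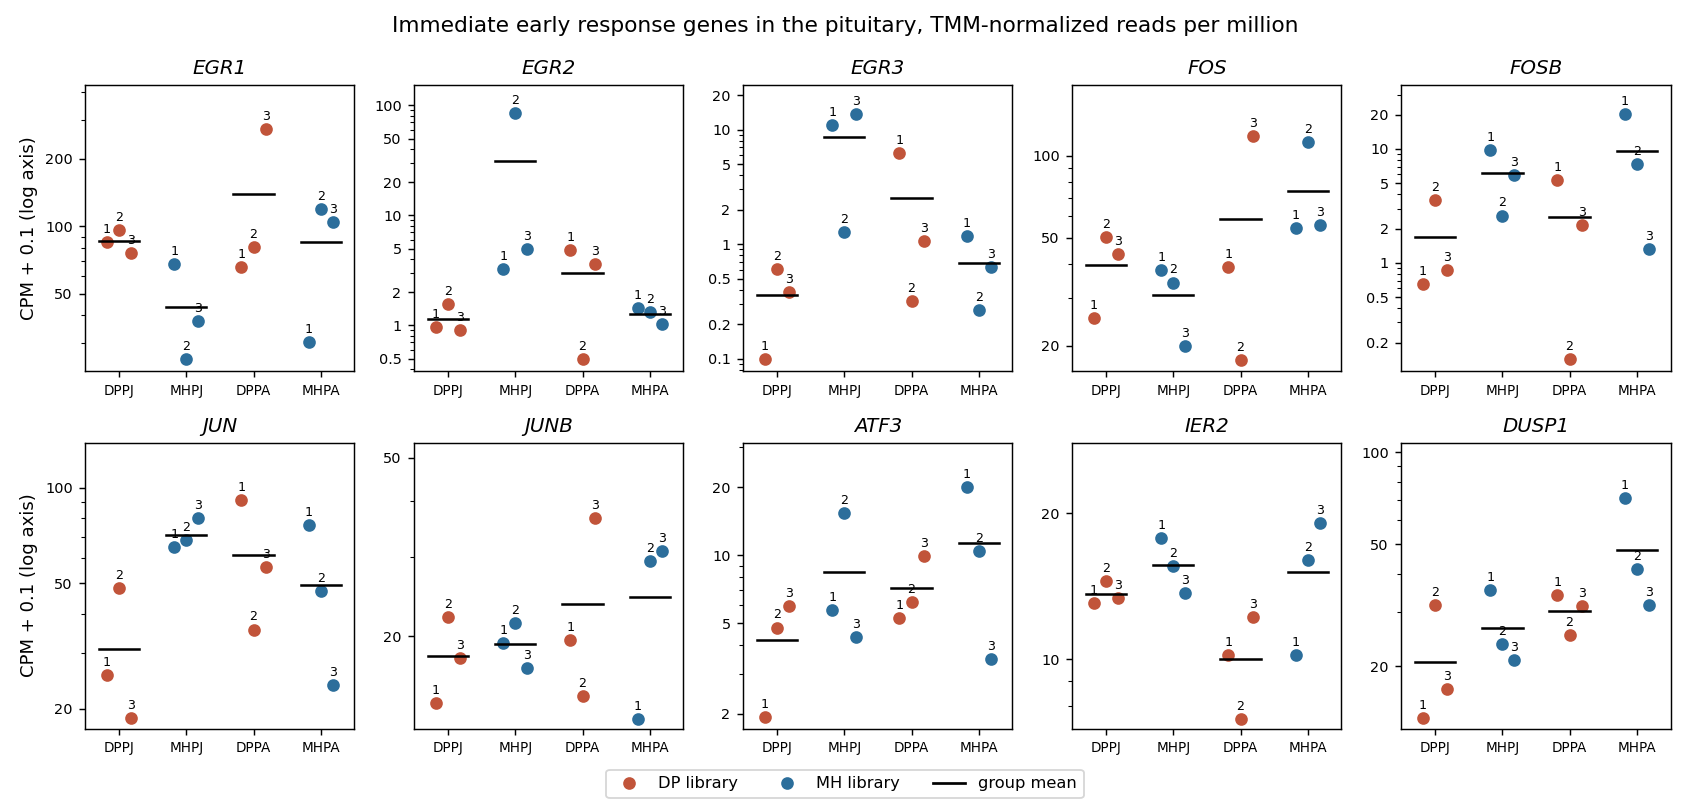
Level of the 10 genes in each pituitary library (TMM-normalized CPM + 0.1, log axis), by group, with the replicate number beside each point and the group mean as a line. EGR3 is 0 CPM in DPPJ replicate 1 and EGR2 is highest in MHPJ replicate 2 (84.8 CPM).

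All 3 MHPJ libraries were among the 5 with a summed hormone level of 14.6 CPM or less, and all 3 DPPJ libraries had between 28680 and 33510 CPM, so breed and this difference in the tissue cannot be told apart at the juvenile stage. Set side by side over all 12 pituitary libraries, with a bound chosen after the sums were seen, the 5 hormone-poor libraries and the other 7 did not overlap for EGR1, EGR3 and JUN. These 3 of 10 genes compare with 17.6% of all genes. EGR3 was 1.08 to 13.6 CPM in the 5 libraries and 0 to 0.958 CPM in the 7. JUN was 64.9 to 91.6 CPM in the 5 and 18.7 to 56.2 CPM in the 7. EGR1 went the other way, at 25.3 to 67.9 CPM in the 5 and 76.0 to 272 CPM in the 7. EGR2 overlapped (1.35 to 84.8 CPM against 0.398 to 3.5 CPM), as did FOSB (2.51 to 20.2 CPM against 0.0442 to 7.27 CPM) and the remaining 5 genes. Of these 5 libraries 2 were of adults, and in them JUN was 91.6 CPM (DPPA replicate 1) and 76.4 CPM (MHPA replicate 1), the highest of their groups.

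**Figure D4:**
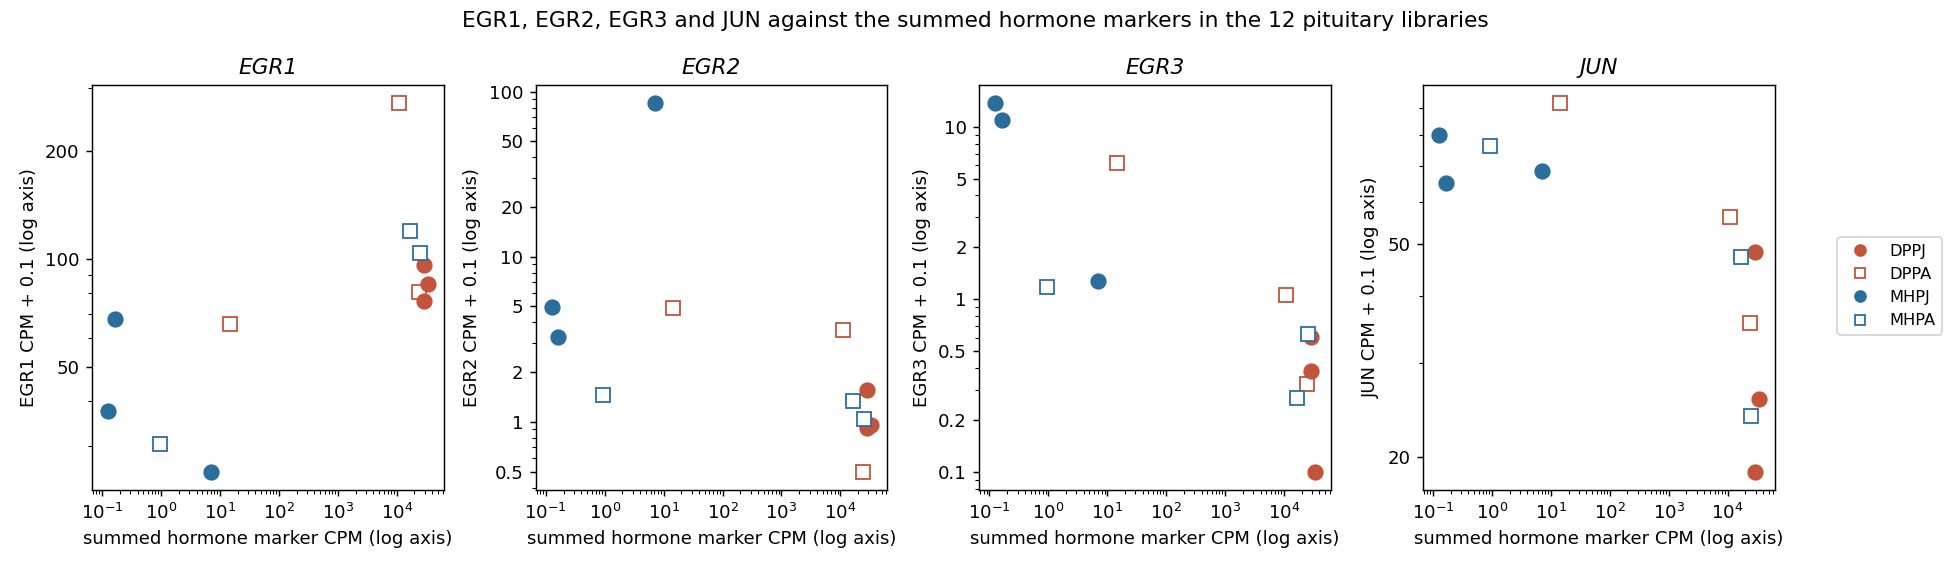
CPM + 0.1 of EGR1, EGR2, EGR3 and JUN (vertical log axis) against the summed CPM of 5 anterior pituitary hormone markers (horizontal log axis) in the 12 pituitary libraries, with breed by colour and stage by symbol. The 5 libraries with 14.6 CPM or less of hormone markers lie above the other 7 for EGR3 and JUN and below them for EGR1.

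In the adult pituitary 0 of the 10 genes were DEGs between the breeds in edgeR's test, against 2.93% of all tested genes, and 0 had an unadjusted P under 0.05. DESeq2 and limma also gave 0. The groups were wide. EGR1 was 65.8, 80.6 and 272 CPM in DPPA and 30.3, 120 and 104 CPM in MHPA (0.71 ± 0.71, adjusted p = 0.778). FOS was 39.0, 17.6 and 119 CPM in DPPA and 54.1, 113 and 55.5 CPM in MHPA (-0.36 ± 0.70, adjusted p = 0.895), and without DPPA replicate 3 it was -1.38 (adjusted p = 0.833). FOSB had 109, 1 and 43 reads in DPPA and 300, 130 and 21 reads in MHPA (-2.01 ± 1.47, adjusted p = 0.703). EGR2 was 1.28 ± 0.85 (adjusted p = 0.685) and 1.80 (adjusted p = 0.797) without DPPA replicate 2. DUSP1 (-0.70 ± 0.35, adjusted p = 0.612) and IER2 (-0.61 ± 0.32, adjusted p = 0.621) had the lowest adjusted p of the 10.

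Over both stages of the pituitary 0 of the 10 genes were DEGs between the breeds by edgeR, and 0 had an unadjusted P under 0.05, against 7.86% of all tested genes called. DESeq2 and limma each called FOSB alone, which was -1.95 ± 0.93 (adjusted p = 0.237) by edgeR. Leaving out 1 library gave up to 2 genes, EGR3 (-2.51) and FOSB (-2.58) without DPPA replicate 1, ATF3 (-1.05) and FOSB (-2.21) without MHPA replicate 3, and EGR1 (1.08) and EGR2 (-2.05) without MHPJ replicate 1. It gave FOSB (-2.57) without DPPJ replicate 2 and EGR2 (-2.11) without MHPJ replicate 3. The interaction of breed and stage gave 3 of 10, against 15.7% of all tested genes. The DP value relative to MHs was lower in juveniles than in adults for EGR2 (-6.17 ± 1.73, adjusted p = 0.166), EGR3 (-7.02 ± 2.02, adjusted p = 0.166) and JUN (-1.52 ± 0.68, adjusted p = 0.242). EGR2 was -3.24 without MHPJ replicate 2, the library with PMP22 at 1767 CPM and PRX at 4820 CPM. The call of JUN was lost without any 1 of 9 of the 12 libraries, all but DPPA replicate 2, DPPJ replicate 2 and MHPA replicate 1, with values from -1.58 to -1.10. FOS passed without DPPA replicate 3 (1.75). DPPA replicate 1 and MHPA replicate 1 left out together gave -5.76 for EGR2, -5.70 for EGR3 and -1.58 for JUN, all DEGs, an alternative added after seeing the data. Without these libraries 0 of 10 were DEGs between the breeds in adults and over both stages. In the interaction fit without them, the only hormone-poor libraries were those of MHPJ. That fit therefore cannot tell the interaction from this difference in the tissue.

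Between the stages, most of the 10 genes did not pass. In the MH pituitary 3 of 10 were DEGs, against 7.74% of all tested genes. EGR2 and EGR3 were higher in juveniles and FOS was lower. All 3 MHPJ libraries were hormone-poor, while MHPA replicates 2 and 3 had summed hormone levels of 16720 and 25110 CPM. Stage and this difference in the tissue therefore cannot be fully told apart in the MH pituitary. EGR3 was 10.9, 1.17 and 13.6 CPM in MHPJ and 1.08, 0.168 and 0.526 CPM in MHPA (3.83 ± 1.11, adjusted p = 0.375), and it was a DEG whichever library was left out. Here too EGR3 passed the low-count filter only through MHPJ. EGR2 was 1.35, 1.23 and 0.935 CPM in MHPA (4.75 ± 1.47, adjusted p = 0.384). It was 1.76 for EGR2 without MHPJ replicate 2, the library with PMP22 at 1767 CPM and PRX at 4820 CPM, and the call was lost without MHPA replicate 1 (adjusted p = 0.241), 2 (adjusted p = 0.854) or 3 (adjusted p = 0.869). FOS was 37.8, 34.1 and 19.8 CPM in MHPJ and 54.1, 113 and 55.5 CPM in MHPA, without overlap (-1.26 ± 0.40, adjusted p = 0.391). The call of FOS was lost without MHPA replicate 2 (-0.82) or MHPJ replicate 3 (-1.02), and the count was 1, EGR3, without MHPA replicate 2. Without MHPA replicate 1, the only hormone-poor library of its group, EGR1 was -1.34 (adjusted p = 0.185) and JUN was 1.03 (adjusted p = 0.193), and both passed. DUSP1 passed without MHPA replicate 3 (-1.05).

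In the DP pituitary 0 of 10 were DEGs between the stages, against 3.56% of all tested genes, and 0 had an unadjusted P under 0.05 by edgeR, while DESeq2 called EGR3 (-3.22). By edgeR EGR3 was -3.18 ± 1.43 (adjusted p = 0.442). Without DPPA replicate 2 the count was 3, EGR2 (-1.98), EGR3 (-3.72) and JUN (-1.27), and without DPPJ replicate 2 it was 1, JUN (-1.45). DPPA replicate 1 was hormone-poor (14.6 CPM), while the DPPJ libraries had 28680 CPM or more. These 3 genes were highest in that replicate of DPPA. EGR3 was 6.11, 0.221 and 0.958 CPM there, EGR2 was 4.78, 0.398 and 3.5 CPM, and JUN was 91.6, 35.5 and 56.2 CPM. Stage and this difference in the tissue therefore cannot be fully told apart in the DP pituitary.

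In the DP long bone 1 of 10 was a DEG, against 3.14%. DUSP1 was higher in juveniles, at 130, 52.6 and 66.3 CPM against 49.5, 28.2 and 28.7 CPM in adults, without overlap (1.21 ± 0.42, adjusted p = 0.988). The call of DUSP1 was lost without DPLBJ replicate 1 (0.75), DPLBA replicate 2 (1.06) or DPLBA replicate 3 (1.08). JUN, at 0.92 ± 0.31 (adjusted p = 0.988), was under the fold threshold. The count was 0 without DPLBA replicate 2 or 3, 3 (DUSP1, IER2 and JUN) without DPLBJ replicate 2 and 2 (DUSP1 and JUN) without DPLBJ replicate 3. FOS was the gene called without DPLBJ replicate 1 (1.28). In the MH long bone 1 of 10 was a DEG, against 2.91%. EGR3 was higher in juveniles, at 30.1, 13.1 and 11.9 CPM against 7.69, 6.90 and 11.9 CPM (1.04 ± 0.43, adjusted p = 0.998). The call of EGR3 was lost without MHLBJ replicate 1 (0.50), MHLBA replicate 1 (0.97) or MHLBA replicate 2 (0.88). The count there was 0 without MHLBA replicate 1 or 2, and 2, EGR3 and FOSB (-3.29), without MHLBA replicate 3. JUNB was the gene called without MHLBJ replicate 1 (-1.06).

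**Figure D5:**
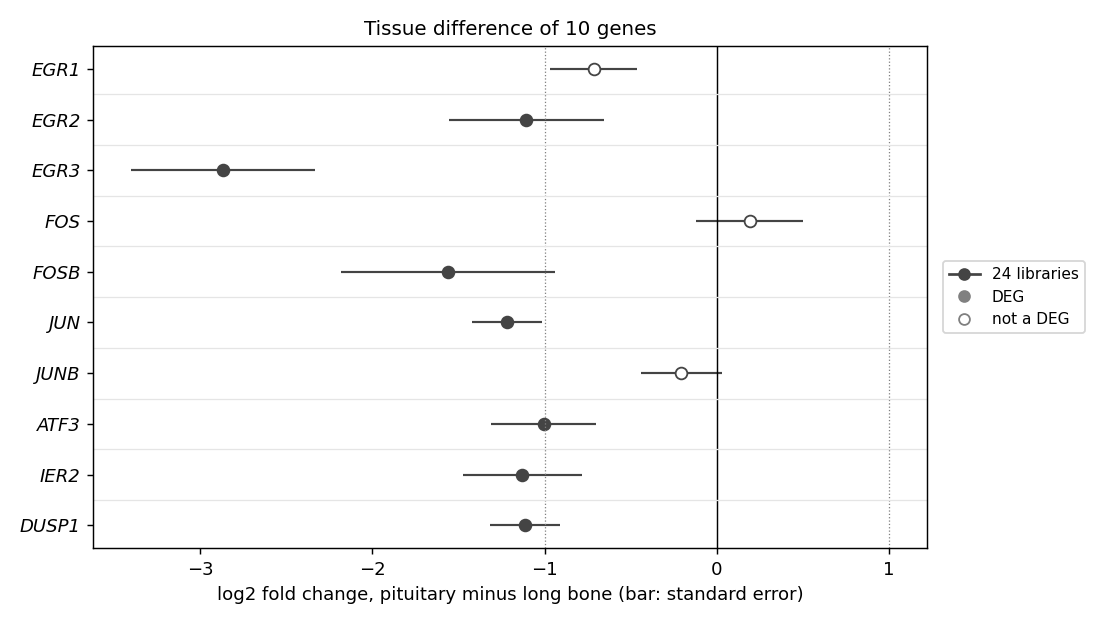
Log2 fold change (pituitary minus long bone) of each gene over all 24 libraries, with bars of 1 standard error, filled where the gene is a DEG and with dotted lines at the fold threshold. EGR3 lies lowest, at -2.87, and FOS and JUNB lie close to 0.

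Between the tissues, 7 of the 10 genes were lower in the pituitary than in the long bone, against 38.9% of all tested genes called in either direction and 17.4% called lower. All 7 had an adjusted p under 0.05 (38.3% of all genes were called by that rule). The median of the 10 was -1.11, and 0.032 over all tested genes. EGR3 had a median of 0.742 CPM in the 12 pituitary libraries (0 to 13.6) and 9.63 CPM in the 12 long bone libraries (2.52 to 30.1), a log2 fold change of -2.87 ± 0.54 (adjusted p = 0.000142). JUN had 52.2 CPM (18.7 to 91.6) and 152 CPM (49.1 to 268), which is -1.22 ± 0.20 (adjusted p = 4.25e-05). DUSP1 had 31.5 CPM (13.5 to 70.7) and 62.8 CPM (28.2 to 130), which is -1.12 ± 0.20 (adjusted p = 0.000120). The tissues overlapped for each of these genes, and these 3 were DEGs whichever library was left out.

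FOSB (-1.56 ± 0.62, adjusted p = 0.0364), IER2 (-1.13 ± 0.35, adjusted p = 0.00826), EGR2 (-1.11 ± 0.45, adjusted p = 0.0395) and ATF3 (-1 ± 0.30, adjusted p = 0.00778) were called with less room. For EGR2 the mean CPM went the other way, 9.01 in the pituitary and 7.53 in the long bone, with MHPJ replicate 2 at 84.8 CPM, while the median was 1.4 and 6.74 CPM. Without that library the log2 fold change of EGR2 was -1.84. Its call was lost without DPPA replicate 2 (-0.97), MHLBJ replicate 1 (-0.96), MHPJ replicate 1 (-0.97) or MHPJ replicate 3 (-0.98). The call of FOSB was lost without MHLBA replicate 1 (-1.03, adjusted p = 0.132), and that of IER2 without DPLBA replicate 2 (-0.74), DPLBJ replicate 2 (-0.88) or MHLBJ replicate 1 (-0.97). ATF3, at the threshold itself, lost its call in 11 of 24 such fits (down to -0.89). Without MHLBJ replicate 1 the count was 4. Without the 5 hormone-poor libraries it was again 7, with EGR3 at -4.73, EGR2 at -2.46 and JUN at -1.72, an alternative added after seeing the data. Without TMM scaling the count was 3, EGR3, FOSB and JUN, and with limma on log2(RPKM + 1) it was 2, EGR3 and JUN. EGR1 was -0.71 ± 0.25 (adjusted p = 0.02), under the fold threshold. FOS (0.19 ± 0.31, adjusted p = 0.613) and JUNB (-0.21 ± 0.23, adjusted p = 0.462) did not pass.

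The genes did not all vary together across the 12 libraries of a tissue. Correlations here are Pearson's r of log2 CPM and are descriptions over libraries that share groups, with the value after removal of group means beside each. In the long bone, JUN and DUSP1 had r = 0.80 (Spearman's rho 0.70, and 0.78 within groups), EGR1 and EGR2 had 0.86 (rho 0.77, within groups 0.68) and FOS and FOSB had 0.77 (rho 0.85, within groups 0.68). JUN and ATF3 had 0.79 (rho 0.83) but 0.15 within groups. JUN ran against IER2 (-0.67, rho -0.54, within groups -0.54). When the 2 libraries farthest from the first gene's median were dropped, r was 0.59 for JUN and DUSP1, 0.64 for EGR1 and EGR2, 0.77 for FOS and FOSB, 0.74 for JUN and ATF3 and -0.53 for JUN and IER2. In the pituitary, JUNB and IER2 had r = 0.51 (rho 0.50) and 0.90 within groups, and FOSB and JUN had 0.70 (rho 0.69) and 0.87 within groups. With the 2 farthest libraries dropped it was 0.61 for JUNB and IER2 and 0.80 for FOSB and JUN.

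The mean of the 10 standardized log2 CPM values gave each library an index. Among long bone libraries it was below 0 in all 6 DP libraries (-0.58 to -0.19) and above 0 in 5 of 6 MH libraries (0.17 to 1.17), with MHLBJ replicate 2 at -0.35. ATF3 (r = 0.87), EGR1 (0.86) and EGR2 (0.85) followed it most closely over the 12 libraries, and JUNB (-0.11) and IER2 (-0.21) did not follow it. Each of the 10 genes is part of the index, which by itself raises its r with the index. In the pituitary the index ran from -0.98 (DPPJ replicate 1) to 0.65 (DPPA replicate 3), and EGR1 had r = 0.057 with it. The other genes with a symbol most like the index over 12 libraries were DLD (r = 0.93), BLCAP (0.91), DUSP11 (0.90), SLC5A6 (0.89) and CINP (0.88) in the long bone and CHSY1, ARID5A, HMHA1, NMNAT1 and IL12RB1 (0.80 to 0.81) in the pituitary. These were picked as the highest of all genes that passed the low-count filter, and no chance level was computed for them.

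Further early response genes were taken from a list of 35, of which 30 were in the files and 26 to 28 were tested. Over both stages of the long bone, 6 were lower and 1 was higher in DPs of 28 tested, where 19.3% of all tested genes were called and 7.97% were lower, with a median log2 fold change of -0.30 against -0.011 over all genes. The lower genes of lowest P were HBEGF, an EGF receptor ligand (-1.37 ± 0.37, adjusted p = 0.0307), KLF6, a zinc finger factor (-1.30 ± 0.37, adjusted p = 0.0335), MAFF, a small leucine zipper factor (-1.49 ± 0.49, adjusted p = 0.0576), and SGK1, a kinase (-1.04 ± 0.35, adjusted p = 0.0582). The single higher gene, looked up after its value was seen, was CTGF, a matricellular protein (1.07 ± 0.37, adjusted p = 0.0640). In the juvenile pituitary 8 were lower and 2 higher in DPs of 27 tested, where 20.3% of all tested genes were called and 12.7% were lower, with a median of -0.98 against -0.073. RHOB, a small GTPase (-1.18 ± 0.21, adjusted p = 0.0272), SGK1 (-2.01 ± 0.39, adjusted p = 0.0337) and MAFF (-1.94 ± 0.40, adjusted p = 0.0374) were lower, and BTG2, an antiproliferative gene (1.1 ± 0.27, adjusted p = 0.0562), was higher. Between the tissues 12 were lower and 1 higher in the pituitary of 28 tested, where 38.9% of all tested genes were called and 17.4% were lower. The 4 of lowest P were the lower genes MYC (-2.49 ± 0.19), CTGF (-3.19 ± 0.27), FOSL2 (-1.79 ± 0.17) and CYR61 (-3.35 ± 0.33).

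Of 18 kinases and factors upstream of these genes, 17 were tested. In the long bone over both stages, MKL2, a coactivator of the serum response factor, was lower in DPs (-1.57 ± 0.30, adjusted p = 0.0116), and RPS6KA1, a ribosomal S6 kinase, was higher (2.04 ± 0.61, adjusted p = 0.0422). The other 15 of these genes did not pass, where 19.3% of all tested genes were called. In the juvenile pituitary 2 of the 17 were lower in DPs and 0 were higher, where 20.3% of all tested genes were called and 12.7% were lower. Among these was MAP2K1, which encodes the kinase MEK1 (-1.95 ± 0.54, adjusted p = 0.0717). Heat shock genes, whose RNA rises with cell stress, were taken from a list of 10 with 9 symbols in the files on 10 identifiers, since DNAJA1 stands on a pair of them. In the long bone over both stages 3 of these 10 were lower in DPs, DNAJA1 (ENSECAG00000010324, -1.94 ± 0.31, adjusted p = 0.00637), HSPH1 (-1.21 ± 0.29, adjusted p = 0.0214) and HSP90AA1 (-1.5 ± 0.44, adjusted p = 0.0386), and none was higher, where 19.3% of all tested genes were called and 7.97% were lower. The median of the 10 was -0.54, against -0.011 over all genes. The part of these in the lower JUN and ATF3 of the same libraries was not tested.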

How the data were processed

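RNA of the 24 tissue pieces was depleted of ribosomal RNA and sequenced from directional libraries. After trimming and mapping to the horse genome, the authors deposited whole counts of reads per gene, not normalized, and RPKM values per gene; the submitters' processing notes name TopHat2 and edgeR, while the methods describe Salmon and TPM values, and which tool made the deposited counts is not given in the sources used here. Groups came from the sample titles. The members and lists were chosen with earlier results of these data known. Reads were fitted on the whole table with edgeR 4.0.16 (quasi-likelihood test, TMM scaling, filterByExpr with a minimum count of 10) in R 4.3.3, in the libraries of each of 13 comparisons. All 10 members are named, with at most 4 DEGs of lowest P from each further list. Alternatives were DESeq2 1.42.0, limma 3.58.1 on log2(RPKM + 1) and log2(RPKM + 0.1), no TMM, no filter, an adjusted p threshold, all 12 libraries of the tissue, the replicate number as a block and each library left out. The fitting code was tested on simulated counts. Deviations of same-numbered libraries correlated above 0.1 in every pair only between DPPA and MHPA (0.329 to 0.621). Within the groups, counts of each replicate pair differed beyond sampling noise. Intervals, floors and P values cover the spread between these libraries. Genes are identified as in the files, and no coordinates are given. Some genes of the further lists are not reported here.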

Additional observations from a re-analysis of the deposited data

Results flagged for a closer look

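The breed difference of 6 values differed between juveniles and adults by the interaction of breed and stage in edgeR's quasi-likelihood test (unadjusted P under 0.05 and a log2 value past 1), none with an adjusted p under 0.05. In the pituitary, where 15.7% of all tested genes passed the same rule, these were EGR2 (-6.17, adjusted p = 0.166), EGR3 (-7.02, adjusted p = 0.166) and JUN (-1.52, adjusted p = 0.242). For all 3 the DP value relative to MHs was lower in juveniles, where the MHPJ libraries had a summed hormone level of 7.10 CPM or less. In the long bone, where 4.17% of all tested genes passed, they were EGR3 (-1.82), JUN (1.07) and DUSP1 (1.56), each with an adjusted p of 0.971.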

How the results depend on the processing

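The depth of 11433209 to 27007342 reads leaves EGR3, EGR2 and FOSB with few reads in several pituitary libraries, and 3 libraries per group limit every count. The 34 called log2 fold changes had 660 alternative values, the adjusted p threshold not among them. Of these values 535 kept the call, 125 kept the direction without it and 0 reversed. DESeq2 gave no p for 5 more, on EGR2 or IER2, and these are not counted as lost. Those of EGR2 were in comparisons with MHPJ, whose replicate 2 had 84.8 CPM. Those of IER2 were in comparisons with DPLBA, whose replicate 2 had 216 CPM. With the adjusted p, the count of called members was 0 in DPPJ against MHPJ, DPLBJ against MHLBJ, MHPJ against MHPA, DPLBJ against DPLBA, MHLBJ against MHLBA and both interactions, 1 in DPLBA against MHLBA and 2 for DPs against MHs over both stages of the long bone. DESeq2 gave 1 in DPPJ against DPPA, 1 over both stages of the pituitary and 5 in the long bone interaction. Without TMM scaling the count was 0 in MHLBJ against MHLBA, 1 over both stages of the pituitary, 1 in the long bone interaction and 3 between the tissues. Without the low-count filter it was 2 in MHLBJ against MHLBA, 2 over both stages of the pituitary and 5 in the long bone interaction. With limma on log2(RPKM + 1) it was 0 in MHLBJ against MHLBA, 1 over both stages of the pituitary, 1 in the pituitary interaction, 1 in the long bone interaction and 2 between the tissues; on log2(RPKM + 0.1) it was 0, 1, 2, 1 and 4 in the same order. With log2(RPKM + 1) and no filter it was 0, 1, 1, 0 and 2 in that order and 2 over both stages of the long bone. The replicate number as a block gave 2 in DPLBJ against DPLBA, 0 in MHLBJ against MHLBA and 2 over both stages of the long bone, and it moved no other count by over 1.5 times. No label says what same-numbered libraries of different groups share. In DPPA and MHPA, whose same-numbered libraries correlated, replicate 1 of both was hormone-poor. The cause of these shifts in the counts was not tested. Leaving out each library in turn gave 1 to 4 in DPPJ against MHPJ, 0 to 1 in DPPA against MHPA, 2 to 4 in DPLBJ against MHLBJ, 5 to 7 in DPLBA against MHLBA, 0 to 3 in DPPJ against DPPA, 1 to 4 in MHPJ against MHPA, 0 to 3 in DPLBJ against DPLBA, 0 to 2 in MHLBJ against MHLBA, 0 to 2 and 2 to 6 over both stages of the pituitary and long bone, 2 to 3 and 2 to 5 in their interactions, and 4 to 7 between the tissues. Leaving out TMM scaling moved the median of all genes by over 0.1 in most comparisons, at most from -0.045 to 0.24 (pituitary interaction), and reversed the sign of 8 member values, none of them called. The share of all called genes that were higher in the first group went from 59.9% to 27.3% (DPPA against MHPA), 26.1% to 51.3% (DPPJ against DPPA), 58.2% to 47.2% (MHPJ against MHPA), 50.2% to 39.6% (DPLBJ against DPLBA), 26.2% to 40.9% (MHLBJ against MHLBA), 43.4% to 65.5% (pituitary interaction) and 61.0% to 46.1% (long bone interaction).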
